A study of Mus musculus with 24 samples.

Results

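The extracellular matrix of the liver is a thin meshwork of collagens, proteoglycans and glycoproteins that lies between hepatocytes and the sinusoids. Much of it is made by hepatic stellate cells, the vitamin A storing pericytes of the sinusoid, and by sinusoidal endothelium and portal fibroblasts. When stellate cells are activated they make more fibrillar collagen and more inhibitors of matrix breakdown, which is the basis of liver fibrosis. The genes described here are 40 genes of this matrix and of stellate cells, taken from a list of gene symbols and matched by name to the 24443 gene names of each table. All 40 were found. They comprise 5 fibrillar collagens, 7 basement membrane genes, 4 genes of collagen VI and XIV, 5 genes of elastic fibres and collagen crosslinking, 6 proteoglycans and matricellular proteins, 5 metalloproteinases and inhibitors, 7 stellate cell markers and receptors, and the growth factor Tgfb1.

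RNA-seq libraries were made from livers of male C57BL/6 mice to ask how fasting, and loss of the repressor BCL6 or of the fatty acid receptor PPARα, alters liver transcription. Fed Bcl6LKO livers carried the genotype Bcl6 fl/fl with Alb-Cre. This transgene expresses Cre from the Albumin promoter, so the deletion is meant for hepatocytes and the other cells of the liver keep the floxed alleles. Fasted PparaKO livers were Ppara-/-, a deletion in every cell, and their labels give no floxed Bcl6 allele. Fasted DKO livers were Ppara-/- with Bcl6 fl/fl and Alb-Cre. Fasted WT and fed WT livers were Bcl6 fl/fl without Cre. Each group had 4 samples. Fasted animals had been without food overnight and fed animals ate freely. The labels give no ages. Nor do they say that samples of a group came from separate animals, so the p-values measure only the spread between these samples.

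Values are the authors' log2 levels, made separately for each of 4 tables. Levels are therefore compared only within a table and only within a gene. How these levels were transformed is not given in the sources used here, and folds and shares of totals are those of the levels as listed. Of the 40 genes, 38 reached in every table the mean log2 level of 4 that was required for testing. The other two, Lox, which encodes lysyl oxidase, and Timp1, an inhibitor of metalloproteinases, lay below it. A gene is called higher or lower at an adjusted p under 0.05 by limma, and each difference is given with its standard error (SE). Between 11910 and 12115 genes were tested per table. The tables hold no read numbers, and sequencing depth is therefore unknown. Because whole liver was measured, fewer cells of a type and less RNA per cell cannot be told apart.

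The targeted genes were checked by their ranges. In the Bcl6LKO table Bcl6 lay between 7.62 and 8.54 in fed Bcl6LKO livers and between 8.02 and 10.49 in fed WT livers (-1.53, SE 0.45, adjusted p = 0.0207), and fed WT replicate 1 fell inside the knockout range. In the DKO table Bcl6 did not separate the groups, lying between 7.32 and 8.13 in fasted DKO livers and between 6.95 and 9.39 in fasted WT livers (-0.39, SE 0.47, adjusted p = 0.54), so its level does not check the Bcl6 label of the DKO libraries. Ppara lay between 10.73 and 11.73 in fasted DKO livers and between 12.99 and 13.26 in fasted WT livers, and between 12.12 and 12.29 in fasted PparaKO livers and 13.07 and 13.32 in fasted WT livers, without overlap. Albumin (Alb), the gene whose promoter drives Cre, took 15.9% ± 0.585 of the back-transformed total in fed Bcl6LKO livers and 5.24% ± 1.11 in fed WT livers (SD, n = 4 each). Its share was 12.1% ± 0.789 in fasted DKO livers and 6.23% ± 0.677 in fasted WT livers. Scaling the libraries to equal totals of back-transformed values put the all-gene median at -0.22 in the Bcl6LKO comparison, -0.09 in fasting and -0.08 in the DKO comparison (log2), and directions are given under this scale too. The stellate cell markers Lrat, Des, Reln, Hhip and Pdgfrb all passed the level required for testing.

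Promoter windows from RefSeq (build GRCm38.p6) were used for 29 of the 40 genes, some with more than 1 start site, for 32 windows in all. The 250 bases before the RefSeq start are shown for Nid1 and Mmp14, which were over 2-fold higher in fed Bcl6LKO livers. They are also shown for Col15a1, which was over 2-fold higher in fasted DKO livers, and for Col3a1, the gene with the largest fall in fasting. Gene positions given elsewhere are from GENCODE. The Nid1 window runs past the GENCODE start of the gene, and the Mmp14 and Col15a1 windows end short of it. All 4 lie on the plus strand and are printed 5′ to 3′. Capitals mark matches, on either strand, to the CCAAT box (CCAAT, read as ATTGG on the other strand), to the GC box (GGGCGG) or to the TATA box (TATAAA).
Nid1, chr13:13437352-13437601: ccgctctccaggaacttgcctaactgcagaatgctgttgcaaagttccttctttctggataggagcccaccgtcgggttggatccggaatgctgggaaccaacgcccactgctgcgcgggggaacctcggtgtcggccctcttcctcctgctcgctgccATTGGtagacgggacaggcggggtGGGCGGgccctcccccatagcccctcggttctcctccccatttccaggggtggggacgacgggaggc
Mmp14, chr14:54431348-54431597: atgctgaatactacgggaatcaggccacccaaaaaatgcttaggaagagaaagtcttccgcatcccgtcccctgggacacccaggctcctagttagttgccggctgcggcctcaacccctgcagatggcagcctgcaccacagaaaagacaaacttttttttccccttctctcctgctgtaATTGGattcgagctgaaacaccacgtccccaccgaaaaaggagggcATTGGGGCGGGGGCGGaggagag
Col15a1, chr4:47207762-47208011: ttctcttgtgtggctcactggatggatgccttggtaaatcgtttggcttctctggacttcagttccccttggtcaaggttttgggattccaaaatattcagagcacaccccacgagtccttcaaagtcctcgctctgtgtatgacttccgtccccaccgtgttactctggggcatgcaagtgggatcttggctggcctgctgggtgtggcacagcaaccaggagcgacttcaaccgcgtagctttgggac
Col3a1, chr1:45311288-45311537: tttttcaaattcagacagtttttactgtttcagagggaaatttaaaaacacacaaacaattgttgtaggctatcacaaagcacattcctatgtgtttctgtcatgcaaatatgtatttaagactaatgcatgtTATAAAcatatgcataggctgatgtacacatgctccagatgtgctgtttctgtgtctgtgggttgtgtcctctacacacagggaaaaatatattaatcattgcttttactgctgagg

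Nid1 and Mmp14 both held the CCAAT box and the GC box, and in Mmp14 a pair of these motifs overlap by their shared G. In the Col3a1 window the letters of the TATA box begin 117 bases before the RefSeq start, and the Col15a1 window held none of these motifs. Over the 32 member windows, 22 (68.8%) held a GC box, against 32.7% of all 32851 windows of the same length. The member windows hold none for Lox or Pdgfrb, whose chromosome was left out for members but kept in the set of all windows. The CCAAT box was in 11 member windows (34.4%), against 33.8% of all windows, and the TATA box in 2 (6.25%), against 12.4%. The letters TTCNNNGAA, the core of a BCL6 or STAT element, were in 0 of 32 member windows and in 7.02% of all, and a direct repeat of AGGTCA with 1 base between its copies, the form bound by PPAR with RXR, was in 0 of 32 and in 0.0335%. These are matches of letters only, and no binding was measured at them here.

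Fasting came with lower levels of all 5 fibrillar collagens and of 3 of the 4 basement membrane collagens, with Col18a1 the exception. Of the 38 genes tested, 14 fell in fasted WT livers relative to fed WT livers, against 11% of all genes, and 4 rose, against 11.9% of all genes. The median difference of the 38 genes was -0.14, while that of all genes was 0.00. Only Col3a1 changed by more than 2-fold, and 1.16% of all genes did so in either direction. The counts were 20 lower and 2 higher with equal library totals, against 3293 and 810 of all 11911 genes then tested. Fasted and fed libraries of the same replicate number deviated together, and with the replicate block the counts were 17 lower and 3 higher. Over all 11910 genes the block gave 1366 lower and 1479 higher. The 4 that rose became 2 without fasted or fed replicate 3 or 4, and Col1a1 also passed the 2-fold limit without fed replicate 2 or 3 (-1.003 and -1.05) and with equal library totals (-1.01).

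All 5 fibrillar collagens fell. Col3a1, the chain of type III collagen (chromosome 1, 45311538 to 45349706 in GRCm38, the mm10 build), had levels of 8.35, 8.59, 8.57 and 8.39 in fasted WT livers, against 10.09, 9.50, 9.48 and 9.97 in fed WT livers. Every fasted library lay more than 0.8 below every fed one, and the difference was -1.28 (SE 0.14, adjusted p = 0.000191), a level 2.43-fold lower in fasted WT livers. Col1a1, the main chain of type I collagen (chromosome 11, 94936224 to 94953042), was measured at 7.09, 7.11, 7.36 and 7.12 in fasted WT livers, against 8.43, 7.86, 7.73 and 8.36 in fed WT livers. The groups did not overlap (-0.92, SE 0.15, adjusted p = 0.00188), although fasted replicate 3 stood above its 3 fellows. Its partner chain Col1a2 had 7.999, 7.91, 8.11 and 7.87 in fasted WT livers, against 8.79, 8.27, 8.14 and 8.72 in fed WT livers, again without overlap, and differed by -0.51 (SE 0.14, adjusted p = 0.0233). This call was lost in 4 of the 8 fits that left out 1 library, those without fasted replicate 2 or 4 or fed replicate 1 or 4 (adjusted p = 0.0508 to 0.0681, differences over all 8 fits between -0.62 and -0.40). Among fed libraries, replicates 1 and 4 were the high ones for all 3 of these chains. The type V collagen genes, whose product starts the assembly of type I fibrils, fell by smaller amounts, with differences of -0.45 (SE 0.09, adjusted p = 0.00428) for Col5a1 and -0.40 (SE 0.09, adjusted p = 0.0121) for Col5a2.

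In the basement membrane group 4 of 7 genes fell. Col4a1 and Col4a2 encode the chains of the main network collagen and are transcribed head to head from start sites 21 bases apart on chromosome 8. Col4a1 was at 9.72, 9.47, 9.77 and 9.71 in fasted WT livers, against 10.21, 10.29, 10.16 and 10.30 in fed WT livers, and fasted replicate 2 was the lowest library (-0.57, SE 0.07, adjusted p = 0.000356). Col4a2 followed with 9.34, 9.35, 9.75 and 9.49 in fasted WT livers, against 9.95, 10.19, 9.92 and 10.10 in fed WT livers, and again the groups were apart (-0.56, SE 0.10, adjusted p = 0.00265). Col15a1, a collagen that links basement membranes to the fibrils beside them, was at 6.70, 7.05, 7.05 and 6.85 in fasted WT livers, against 7.38, 7.82, 7.33 and 7.64 in fed WT livers, and differed by -0.63 (SE 0.12, adjusted p = 0.00419). Lamb1, a laminin chain, differed by -0.21 (SE 0.06, adjusted p = 0.0428), its groups overlapped, and the call was lost in 7 of the 8 fits without 1 library, all but that without fasted replicate 4 (adjusted p = 0.0537 to 0.11). Col18a1, the source of endostatin, was not called (-0.01, SE 0.05, adjusted p = 0.89, 95% confidence interval -0.13 to 0.11). Nid1, which encodes nidogen and bridges laminin and type IV collagen, was not called (adjusted p = 0.0621), but passed with the replicate block (-0.19, SE 0.05, adjusted p = 0.0284) and with equal library totals (adjusted p = 0.00886).

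Among the genes of collagen VI and XIV, Col6a3 had 7.97, 7.94, 8.07 and 8.06 in fasted WT livers, against 8.82, 8.38, 8.35 and 8.64 in fed WT livers, and fell without overlap (-0.54, SE 0.10, adjusted p = 0.00336), and Col14a1, a collagen that sits on fibril surfaces, fell too (-0.49, SE 0.10, adjusted p = 0.00738). Col6a2, another chain of type VI collagen, was not called (adjusted p = 0.0566), but passed with the block (-0.31, SE 0.09, adjusted p = 0.0424), with equal library totals (adjusted p = 0.0182) and without fasted replicate 4 or fed replicate 3 (adjusted p = 0.0386 and 0.0192). Of the 4 tested genes of elastic fibres and crosslinking 0 were called by limma, and 1 had an unadjusted p under 0.05, on the low side. Sparc, a collagen-binding matricellular protein, was the 1 of 6 genes in its group that fell. Its levels were 9.17, 9.004, 9.01 and 9.07 in fasted WT livers, against 9.81, 9.53, 9.60 and 9.76 in fed WT livers, a gap of over 0.3 between the groups (-0.61, SE 0.07, adjusted p = 0.000288). Decorin (Dcn), which binds collagen fibrils and TGF-beta, was not called (adjusted p = 0.063), but passed with the block (0.23, SE 0.05, adjusted p = 0.0127) and without fasted replicate 2 or fed replicate 1 (adjusted p = 0.0442 and 0.0291).

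The genes that rose in fasting were in other roles. Mmp14, the membrane-bound metalloproteinase that cleaves fibrillar collagen and activates pro-MMP2, rose by 0.49 (SE 0.09, adjusted p = 0.00343) without overlap. Pdgfra, a receptor for platelet-derived growth factor found on stellate cells and fibroblasts, rose by 0.37 (SE 0.08, adjusted p = 0.00762). Timp3, an inhibitor of metalloproteinases that is held in the matrix (0.21, SE 0.06, adjusted p = 0.0322), and Hhip, a decoy for hedgehog ligands used as a stellate cell marker in mouse liver (0.29, SE 0.09, adjusted p = 0.0363), were called with overlapping groups, and both calls were lost with the replicate block (adjusted p = 0.0556 and 0.0574) and with equal library totals (adjusted p = 0.163 and 0.108). Timp3 was also lost in the 6 fits without fasted or fed replicate 2, 3 or 4 (adjusted p = 0.071 to 0.0825), and Hhip in the 5 without fasted replicate 1, 3 or 4 or fed replicate 3 or 4 (adjusted p = 0.0782 to 0.092). The exons of Timp3 share 21.3% of their length with Syn3 on the opposite strand, and whether the counting used strand is not given in the sources used here.

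The stellate cell markers did not move together. Lrat, the enzyme that makes the retinyl esters stored by quiescent stellate cells (chromosome 3, 82892579 to 82903973), had 8.37, 8.28, 8.19 and 8.19 in fasted WT livers, against 8.76, 9.02, 8.31 and 8.89 in fed WT livers. Fed replicate 3 lay among the fasted samples, and the call (-0.49, SE 0.13, adjusted p = 0.0213) was lost without fasted replicate 3 or 4 or fed replicate 2 or 4 (adjusted p = 0.0501 to 0.0636). Pdgfrb, the receptor that drives stellate cell growth, fell by 0.34 (SE 0.08, adjusted p = 0.0101). Desmin (Des) had 5.93, 5.91, 6.001 and 6.10 in fasted WT livers, against 5.99, 5.84, 5.81 and 6.12 in fed WT livers, with no call (0.05, SE 0.08, adjusted p = 0.713, 95% confidence interval -0.13 to 0.22), and turned to -0.04 with equal library totals. Acta2, the smooth muscle actin of activated stellate cells and vessel walls, was at 4.98, 4.96, 5.19 and 4.91 in fasted WT livers, against 5.13, 5.08, 5.38 and 5.37 in fed WT livers. Its difference (-0.23, SE 0.09, adjusted p = 0.0825) passed with the block (adjusted p = 0.0438), with equal library totals (-0.32, adjusted p = 0.0162) and without fasted replicate 3 or fed replicate 2 (adjusted p = 0.0409 and 0.0485). Tgfb1, the cytokine that induces matrix genes, was at 7.52, 7.34, 7.36 and 7.13 in fasted WT livers, against 7.54, 7.21, 7.37 and 7.47 in fed WT livers, groups that overlap throughout (-0.06, SE 0.09, adjusted p = 0.696, interval -0.27 to 0.15). Timp1 was listed between -0.73 and -0.71 in fasted WT livers and between -0.73 and -0.70 in fed WT livers, too low to test.

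Markers of other cell types were counted in fasting too, where 11.9% of all genes were higher and 11% lower. Of 8 erythroid markers tested 7 were higher and 1 lower in fasted WT livers, with summed back-transformed levels of 11829 to 15023 in fasted WT livers and 5274 to 7788 in fed WT livers, and none of the 9 was at 0. Of 14 sinusoidal endothelial markers 2 were lower (sums 10142 to 11448 in fasted WT livers and 10616 to 11506 in fed WT livers, none at 0), and of 13 Kupffer cell markers 0 were called by limma, with sums of 6326 to 8140 and 7131 to 9009 in these groups and none at 0. Of 4 vascular smooth muscle markers tested 2 were lower (median difference -0.15), with sums of 2327 to 2839 in fasted WT livers and 2516 to 2639 in fed WT livers and none of 7 at 0. Of 3 portal fibroblast and mesothelial markers tested 0 were called by limma. Sums over the 9 listed were 139 to 146 in fasted WT livers and 136 to 150 in fed WT livers. Of 2 cholangiocyte markers and 1 lymphocyte marker tested 0 were called. The part of these cell types in the collagen differences was not tested.

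**Figure D1:**
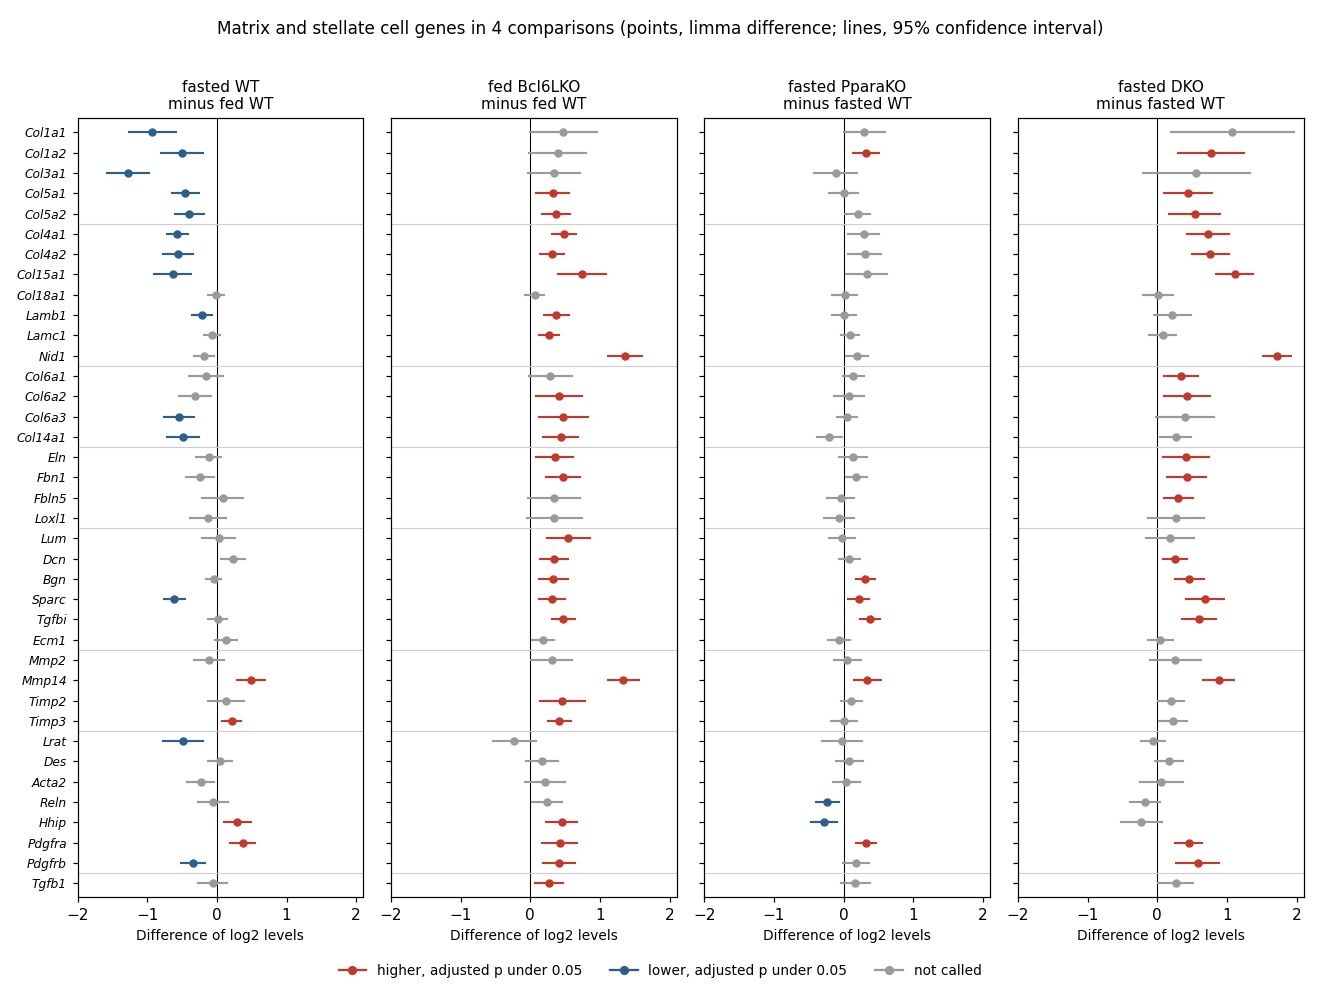
Difference of log2 levels for the 38 tested genes, ordered by role, in the 4 comparisons. Points are limma differences, lines 95% confidence intervals, and colours mark calls at an adjusted p under 0.05. In fasting 14 genes lie left of 0 in blue, and in fed Bcl6LKO and fasted DKO livers Nid1 stands farthest to the right. Under equal library totals 6 genes rather than 25 were called higher in fed Bcl6LKO livers.

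In fed Bcl6LKO livers each of the 8 roles held a gene or genes called higher, with Nid1 and Mmp14 far ahead of the rest. The growth factor role is Tgfb1 alone, and of the 5 fibrillar collagens 2 were called. With equal library totals higher calls were made in 3 of the 8 roles. Relative to fed WT livers 25 of the 38 genes were higher, against 18.3% of all genes. By limma 0 were lower, also at an unadjusted p under 0.05, against 19.8% of all genes called lower. Nid1 and Mmp14 were the only members over 2-fold, and 4.23% of all genes passed this fold in either direction. The median difference of the 38 genes was 0.36 and that of all genes -0.01. These counts depend on the scale. When library totals were made equal, 6 genes (Nid1, Mmp14, Col15a1, Col4a1, Tgfbi and Timp3) were called higher and 2 lower. Over all 12118 genes then tested, 976 were higher and 6892 lower. With Alb left out of the totals, an alternative chosen after seeing the data, 19 were higher and 0 lower by limma. Over all 12116 genes tested on that scale, 1761 were higher and 3183 lower.

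Nid1 (chromosome 13, 13437551 to 13512269) was at 9.96, 10.60, 10.34 and 10.38 in fed Bcl6LKO livers, against 8.97, 8.86, 9.01 and 9.02 in fed WT livers. Each knockout library exceeded the highest fed WT library by more than 0.9, and the difference of 1.35 (SE 0.11, adjusted p = 4.81e-06) is a 2.56-fold higher level. Its adjusted p was 2.02e-05 with equal library totals. Mmp14 (chromosome 14, 54431612 to 54445364) had 9.91, 9.78, 9.80 and 9.87 in fed Bcl6LKO livers, against 8.84, 8.43, 8.29 and 8.45 in fed WT livers, and fed WT replicate 1 was the highest of its group. The difference was 1.34 (SE 0.10, adjusted p = 2.45e-06), 2.53-fold, and 1.12 with equal library totals (adjusted p = 8.9e-06). The Nid1 exons share 2.06% of their length with Gm48682, and those of Mmp14 share none with any annotated gene.

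Of the other 6 basement membrane genes 5 were higher, each by less than Nid1. Col15a1 had 8.35, 8.43, 8.97 and 8.53 in fed Bcl6LKO livers, against 7.63, 8.15, 7.57 and 7.94 in fed WT livers, and knockout replicate 3 was the highest (0.74, SE 0.15, adjusted p = 0.00342). Col4a1 had 10.60, 10.95, 10.93 and 10.88 in fed Bcl6LKO livers, against 10.31, 10.41, 10.27 and 10.42 in fed WT livers, without overlap (0.49, SE 0.08, adjusted p = 0.00057). Also higher were Col4a2, with overlap (0.31, SE 0.08, adjusted p = 0.0106), Lamb1 (0.37, SE 0.08, adjusted p = 0.00494) and Lamc1, another laminin chain (0.26, SE 0.07, adjusted p = 0.00958). In all, 6 of the 7 genes rose. Col18a1, the source of endostatin, was not called (0.06, SE 0.06, adjusted p = 0.445) and its groups overlapped. With equal library totals 3 of the 7 were called higher, while Col18a1 was called lower (-0.15, adjusted p = 0.0335).

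Of the 5 fibrillar collagens 2 were called higher, and not the chains of types I and III. Col1a1 was at 8.38, 9.31, 8.66 and 8.98 in fed Bcl6LKO livers, against 8.73, 8.10, 7.94 and 8.66 in fed WT livers, Col1a2 at 8.75, 9.46, 8.86 and 8.97 in fed Bcl6LKO livers, against 8.97, 8.39, 8.24 and 8.89 in fed WT livers, and Col3a1 at 10.02, 10.66, 10.19 and 10.37 in fed Bcl6LKO livers, against 10.33, 9.69, 9.66 and 10.20 in fed WT livers. In all 3 genes fed WT replicates 1 and 4 lay within the knockout range, and knockout replicate 2 was the highest of the 8 libraries. The differences were not called, at 0.47 (SE 0.22, adjusted p = 0.112) for Col1a1, 0.39 (SE 0.19, adjusted p = 0.123) for Col1a2 and 0.34 (SE 0.17, adjusted p = 0.142) for Col3a1, and the upper ends of their 95% intervals were 0.95, 0.80 and 0.72. Leaving out knockout replicate 1 brought Col1a1 to 0.62 (adjusted p = 0.0441), and leaving out fed WT replicate 1 brought Col3a1 to 0.46 (adjusted p = 0.0494). Col5a1 (0.32, SE 0.10, adjusted p = 0.0341) and Col5a2 (0.37, SE 0.09, adjusted p = 0.00917) were called higher. The groups of Col5a1 overlapped, and its call was lost without knockout replicate 2 or 4 or fed WT replicate 2 or 3 (adjusted p = 0.0865 to 0.0943).

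Among the other structural genes, 3 of 4 in the collagen VI and XIV group, 2 of 4 in the elastic group and 5 of 6 proteoglycans and matricellular proteins were higher, against 18.3% of all genes. With equal library totals these counts were 0, 0 and 1, and with Alb left out of the totals 1, 1 and 5. Fbn1, the fibrillin of elastic microfibrils, was at 7.93, 8.21, 8.02 and 7.98 in fed Bcl6LKO livers, against 7.81, 7.45, 7.29 and 7.70 in fed WT livers, and differed by 0.47 (SE 0.11, adjusted p = 0.0071). Its exons share 20.1% of their length with the gene Gm9913 on the opposite strand. Lum, the keratan sulphate proteoglycan lumican, had 7.30, 7.31, 6.98 and 6.94 in fed Bcl6LKO livers, against 7.01, 6.50, 6.41 and 6.42 in fed WT livers, where fed WT replicate 1 fell in the knockout range (0.55, SE 0.14, adjusted p = 0.0115). Tgfbi, a secreted matrix protein induced by TGF-beta, was at 9.62, 9.95, 9.71 and 9.73 in fed Bcl6LKO livers, against 9.38, 9.29, 9.12 and 9.33 in fed WT livers, and did not overlap (0.48, SE 0.08, adjusted p = 0.00076).

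Col6a3 had 8.77, 9.55, 9.11 and 9.29 in fed Bcl6LKO livers, against 9.01, 8.52, 8.48 and 8.81 in fed WT livers, with fed WT replicates 1 and 4 inside the knockout range, and its call (0.47, SE 0.16, adjusted p = 0.0384) was lost with the replicate block (adjusted p = 0.0672) and in 6 of the 8 fits without 1 library, all but those without knockout or fed WT replicate 1 (adjusted p = 0.0537 to 0.103). Col14a1 (0.44, SE 0.11, adjusted p = 0.0114), Dcn (0.33, SE 0.09, adjusted p = 0.0144), biglycan or Bgn (0.33, SE 0.09, adjusted p = 0.0175) and Sparc (0.31, SE 0.08, adjusted p = 0.0136) were higher without overlap. Calls of Col6a2 (0.42, SE 0.15, adjusted p = 0.049) and the elastin gene Eln (0.35, SE 0.12, adjusted p = 0.0395) were close to the threshold, and their groups overlapped. Both were lost without knockout replicate 2 or 4 or fed WT replicate 2, 3 or 4, and Eln also without knockout replicate 1 (adjusted p = 0.0781 to 0.133 over both genes).

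Both inhibitors tested were higher in fed Bcl6LKO livers, Timp2 by 0.46 (SE 0.15, adjusted p = 0.0315) with overlap and Timp3 by 0.42 (SE 0.07, adjusted p = 0.00131) without. Timp2 was lost without knockout replicate 2 or 4 or fed WT replicate 2 or 3 (adjusted p = 0.0687 to 0.0884). Of the stellate cell genes, Pdgfra (0.42, SE 0.11, adjusted p = 0.0132), Pdgfrb (0.41, SE 0.11, adjusted p = 0.0116) and Hhip (0.45, SE 0.10, adjusted p = 0.00513) rose, Pdgfra with overlapping groups. Lrat did not, with levels of 8.52, 8.59, 8.65 and 8.57 in fed Bcl6LKO livers, against 8.82, 9.11, 8.32 and 8.98 in fed WT livers. The knockout libraries lay within the fed WT range, and the difference of -0.23 (SE 0.14, adjusted p = 0.224) became -0.44 (adjusted p = 0.0201) with equal library totals and -0.39 (adjusted p = 0.00287) without fed WT replicate 3.

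Des was at 6.23, 6.15, 5.94 and 6.22 in fed Bcl6LKO livers, against 6.03, 5.83, 5.80 and 6.20 in fed WT livers, and Acta2 at 6.08, 5.75, 5.64 and 5.57 in fed Bcl6LKO livers, against 5.40, 5.34, 5.74 and 5.72 in fed WT livers. Neither was called (0.17, SE 0.10, adjusted p = 0.218 for Des and 0.21, SE 0.13, adjusted p = 0.22 for Acta2), and with equal library totals Des came to -0.05 and Acta2 to -0.003. Tgfb1 had 7.69, 7.81, 7.61 and 7.76 in fed Bcl6LKO livers, against 7.63, 7.23, 7.42 and 7.55 in fed WT livers, and was called higher by a small amount (0.27, SE 0.09, adjusted p = 0.0366) with overlap at fed WT replicate 1, a call lost with the block (adjusted p = 0.0557), with equal library totals (0.05, adjusted p = 0.65), and without knockout replicate 1, 2 or 4 or fed WT replicate 2 or 3 (adjusted p = 0.0609 to 0.0952). Timp1 was at 1.45 to 1.63 in fed Bcl6LKO livers and 1.36 to 1.41 in fed WT livers, apart but too low to test.

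Sinusoidal endothelial markers moved the same way in this comparison. Of 14, 9 were higher in fed Bcl6LKO livers (median difference 0.21), where 18.3% of all genes were higher and 19.8% lower. The sums were 12440 to 14111 in fed Bcl6LKO livers and 10726 to 11725 in fed WT livers, with no marker at 0. With equal library totals 1 of these 14 was higher and 1 lower. Of 13 Kupffer cell markers 1 was higher, with sums of 7526 to 10203 in fed Bcl6LKO livers and 7159 to 9295 in fed WT livers. Of 4 portal fibroblast and mesothelial markers tested 1 was higher and 0 lower by limma. Sums over the 9 listed were 169 to 183 in fed Bcl6LKO livers and 146 to 166 in fed WT livers. Both lymphocyte markers tested were higher, and 1 of 3 cholangiocyte markers was lower. Of 4 vascular smooth muscle markers 1 was higher and 1 lower, as of 8 erythroid markers. The part of these cell types in the matrix differences was not tested.

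**Figure D2:**
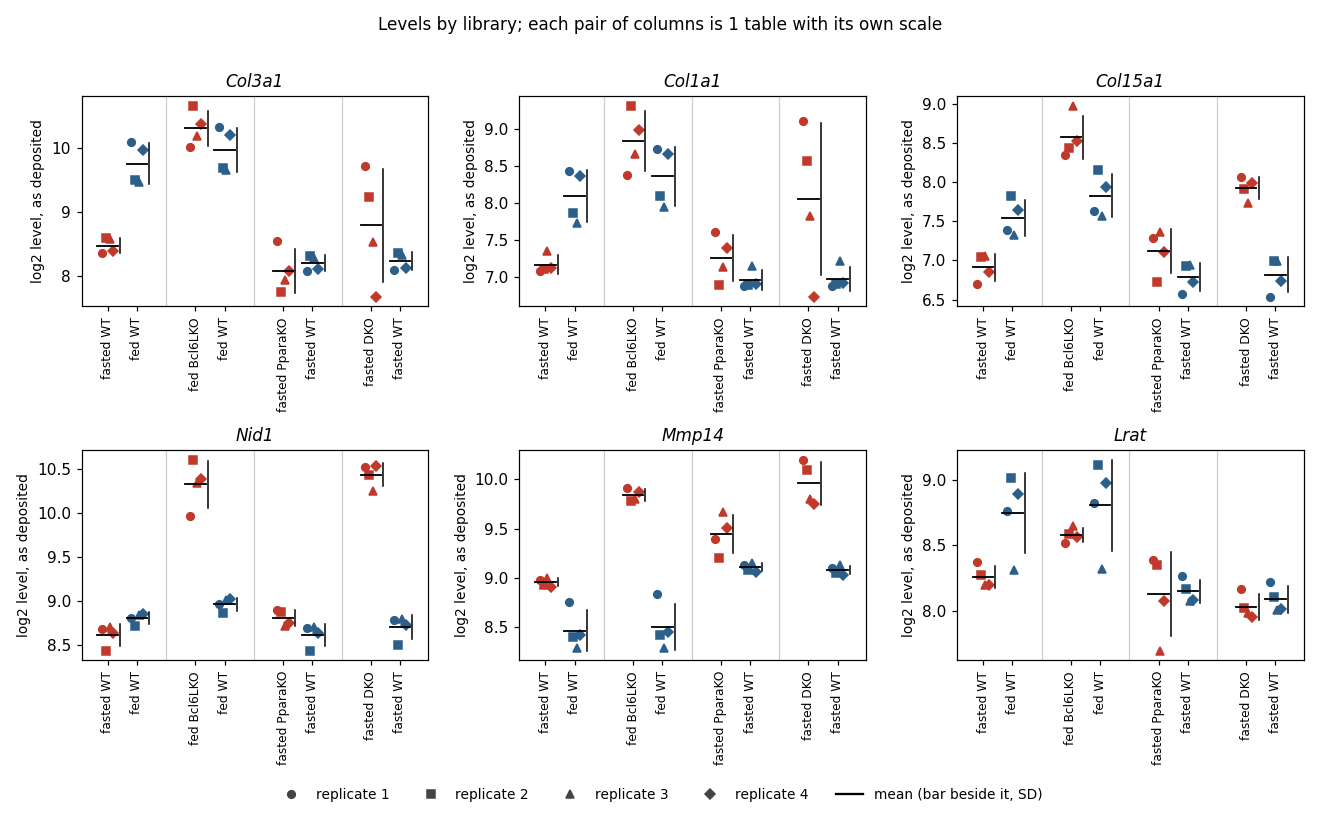
Levels of 6 genes in every library of the 4 tables (log2, as deposited), with replicates by symbol, group means as horizontal lines and SD as the bar beside them. Tables have separate scales. The Nid1 points of the groups stand clear of each other in the Bcl6LKO and DKO tables, the Col1a1 and Col3a1 points of fasted DKO livers spread over more than 2 log2 units with replicate 4 at the bottom, and Lrat of fed WT livers has its lowest library in replicate 3.

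Fasted PparaKO livers were set against fasted WT livers, where the called genes were led by Tgfbi, Mmp14 and Pdgfra on the high side and by Hhip and Reln on the low side. Of the 38 genes 6 were higher, against 11.7% of all genes, and 2 were lower, against 13.3% of all genes. By limma 0 passed the 2-fold limit, as 1.58% of all genes did in either direction, and the largest of the called differences was 0.38. The median difference was 0.08 for these genes and 0.01 for all genes. The counts were 7 higher and 2 lower on equal totals, against 1351 and 1559 of all 11932 genes tested. The 2 that were lower became 0 without knockout replicate 3 or 4 or WT replicate 1 or 4, and 1 without knockout replicate 1 or 2. Of 13 Kupffer cell markers 2 were higher (sums 7597 to 10692 in fasted PparaKO livers and 6411 to 8267 in fasted WT livers, none at 0), and of 14 sinusoidal endothelial markers 0 were called by limma, with 2 at an unadjusted p under 0.05. Of 3 portal fibroblast and mesothelial markers tested 1 was lower and 0 higher. Of 4 vascular smooth muscle and 8 erythroid markers 0 were called. Their part in the matrix differences was not tested.

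Tgfbi led with 9.83, 9.55, 9.69 and 9.73 in fasted PparaKO livers, against 9.36, 9.22, 9.39 and 9.32 in fasted WT livers, groups that did not overlap (0.38, SE 0.07, adjusted p = 0.00246). Mmp14 had 9.40, 9.20, 9.67 and 9.50 in fasted PparaKO livers, against 9.13, 9.08, 9.15 and 9.06 in fasted WT livers, and the lowest knockout library was still above the highest WT library (0.34, SE 0.09, adjusted p = 0.0158). Pdgfra was at 8.07, 8.12, 8.17 and 8.10 in fasted PparaKO livers, against 7.86, 7.65, 7.79 and 7.88 in fasted WT livers, and also apart (0.32, SE 0.07, adjusted p = 0.00488). Bgn, a proteoglycan related to decorin, followed with 10.11, 10.06, 9.90 and 9.998 in fasted PparaKO livers, against 9.74, 9.62, 9.69 and 9.77 in fasted WT livers (0.31, SE 0.06, adjusted p = 0.00438). These were small and regular shifts, in which all 4 knockout libraries lay above all 4 WT libraries.

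Col1a2 had 8.40, 8.05, 8.21 and 8.31 in fasted PparaKO livers, against 7.96, 7.87, 8.07 and 7.82 in fasted WT livers, with 1 knockout library below the highest WT library (0.32, SE 0.08, adjusted p = 0.0189), and was lost without knockout replicate 4 or WT replicate 2 or 4 (adjusted p = 0.0516 to 0.0551). Sparc, at 9.33, 9.29, 9.09 and 9.12 in fasted PparaKO livers, against 9.11, 8.94, 8.94 and 9.01 in fasted WT livers, was called with overlap (0.21, SE 0.07, adjusted p = 0.0485), and the call was lost without knockout replicate 1 or 2 or WT replicate 2, 3 or 4 (adjusted p = 0.084 to 0.125). Col1a1 was at 7.61, 6.90, 7.14 and 7.39 in fasted PparaKO livers, against 6.88, 6.90, 7.16 and 6.91 in fasted WT livers. Knockout replicate 1 was the highest and replicates 2 and 3 lay within the WT range, and the difference was not called (0.30, SE 0.13, adjusted p = 0.126) but reached 0.42 (adjusted p = 0.0237) without knockout replicate 2. Col3a1 had 8.54, 7.75, 7.94 and 8.08 in fasted PparaKO livers, against 8.07, 8.32, 8.29 and 8.10 in fasted WT livers, overlapping throughout (-0.12, SE 0.14, adjusted p = 0.575, interval -0.43 to 0.19). In the basement membrane group 0 of 7 genes were called by limma, while 4 had an unadjusted p under 0.05, all on the high side, and Col4a1 passed with the replicate block (0.28, SE 0.08, adjusted p = 0.03), with equal library totals (0.29, adjusted p = 0.0466), after quantile normalization (0.33, adjusted p = 0.0319) and without knockout replicate 2 (0.34, adjusted p = 0.033). Col14a1 was not called (-0.21, SE 0.08, adjusted p = 0.0889), but was lower with the replicate block (adjusted p = 0.0472), with equal library totals leaving out Alb (-0.24, adjusted p = 0.0477) and without WT replicate 3 (-0.26, adjusted p = 0.0486).

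Both genes called lower were among the 7 stellate cell markers and receptors, of which 1, Pdgfra, was called higher. Hhip was at 6.94, 6.88, 6.82 and 6.71 in fasted PparaKO livers, against 7.20, 6.90, 7.22 and 7.17 in fasted WT livers, with 1 WT library inside the knockout range (-0.28, SE 0.08, adjusted p = 0.0312). Reln, the secreted glycoprotein reelin, which stellate cells make in the liver, was at 10.96, 11.01, 10.998 and 11.03 in fasted PparaKO livers, against 11.43, 11.08, 11.14 and 11.29 in fasted WT livers. Its knockout values were close together and below every WT value (-0.24, SE 0.08, adjusted p = 0.0417), but the call was lost without any 1 knockout library or without WT replicate 1 or 4 (adjusted p = 0.0608 to 0.0989), with the replicate block (adjusted p = 0.0592) and after quantile normalization (-0.11, adjusted p = 0.296). Hhip was lost without knockout replicate 3 or 4 or WT replicate 1, 3 or 4 (adjusted p = 0.0706 to 0.0884).

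Lrat, Des, Acta2 and Tgfb1 gave no call in this comparison. Lrat had 8.39, 8.35, 7.69 and 8.07 in fasted PparaKO livers, against 8.27, 8.17, 8.08 and 8.08 in fasted WT livers, with knockout replicate 3 the lowest (-0.02, SE 0.13, adjusted p = 0.917, interval -0.31 to 0.27), and Des had 6.29, 5.91, 6.23 and 6.13 in fasted PparaKO livers, against 6.01, 5.98, 6.08 and 6.18 in fasted WT livers (0.08, SE 0.09, adjusted p = 0.533, interval -0.11 to 0.27). Acta2 was at 5.01, 4.68, 4.73 and 4.80 in fasted PparaKO livers, against 4.73, 4.72, 4.96 and 4.66 in fasted WT livers (0.03, SE 0.09, adjusted p = 0.802, interval -0.16 to 0.23). Tgfb1 had 7.64, 7.34, 7.54 and 7.63 in fasted PparaKO livers, against 7.56, 7.38, 7.39 and 7.16 in fasted WT livers (0.17, SE 0.10, adjusted p = 0.225, interval -0.04 to 0.38). In each of the 4 genes the groups overlapped. Timp1 stood between -0.23 and -0.16 in fasted PparaKO livers and between -0.23 and -0.20 in fasted WT livers.

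In fasted DKO livers many matrix genes were higher than in fasted WT livers, with Nid1 in front. Of the 38 genes 19 rose, against 19.3% of all genes, and by limma 0 fell, also at an unadjusted p under 0.05, against 20.8% of all genes called lower. Nid1 and Col15a1 were over 2-fold, and 6.11% of all genes passed this fold in either direction. The median difference of the 38 genes was 0.37 and that of all genes 0.00. With equal library totals 12 were higher and 1, Reln, was lower (-0.27, adjusted p = 0.0383). Over all 12005 genes then tested, 1590 were higher and 3416 lower. The 4 DKO libraries were unlike each other. Replicate 4 was the lowest of its group for 29 of the 38 genes and lay above every WT library for 15 of them, where replicates 1 to 3 did so for 33, 30 and 27. Such counts were not made over all genes, and whether this order is particular to these genes was not tested. In the fit without replicate 4, the genes Nid1, Col15a1, Col1a1 and Col1a2 (4 in all) were over 2-fold higher, 25 genes were higher and 1, Hhip, was lower (-0.34, adjusted p = 0.0455). Over all 12003 genes tested in that fit, 2295 were higher and 2483 lower.

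Nid1 had 10.52, 10.43, 10.25 and 10.53 in fasted DKO livers, against 8.79, 8.51, 8.80 and 8.73 in fasted WT livers. Every DKO library, replicate 4 included, exceeded the WT libraries by more than 1.4, and the difference of 1.72 (SE 0.09, adjusted p = 2.5e-07) corresponds to a 3.30-fold higher level. Col15a1 (chromosome 4, 47208161 to 47313167) was at 8.06, 7.91, 7.74 and 7.99 in fasted DKO livers, against 6.54, 6.99, 6.999 and 6.74 in fasted WT livers, a gap of over 0.7 between the groups (1.11, SE 0.12, adjusted p = 3.96e-05, 2.16-fold). Mmp14 had 10.20, 10.09, 9.80 and 9.75 in fasted DKO livers, against 9.10, 9.05, 9.13 and 9.03 in fasted WT livers, and was higher by 0.88 (SE 0.10, adjusted p = 6.6e-05). For these 3 genes replicate 4 lay above every WT library, as the other DKO libraries did.

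The type IV collagen pair rose together. Col4a1 was at 10.56, 10.54, 10.26 and 9.93 in fasted DKO livers, against 9.66, 9.37, 9.70 and 9.64 in fasted WT livers, and Col4a2 at 10.24, 10.26, 10.30 and 9.89 in fasted DKO livers, against 9.25, 9.26, 9.70 and 9.42 in fasted WT livers, with replicate 4 the lowest DKO library in both and no overlap with WT (0.73, SE 0.14, adjusted p = 0.00181 for Col4a1 and 0.76, SE 0.12, adjusted p = 0.000591 for Col4a2). Sparc was at 9.91, 9.83, 9.61 and 9.28 in fasted DKO livers, against 9.09, 8.91, 8.90 and 8.98 in fasted WT livers (0.69, SE 0.12, adjusted p = 0.00147), and Tgfbi at 10.04, 10.09, 9.73 and 9.60 in fasted DKO livers, against 9.31, 9.14, 9.34 and 9.26 in fasted WT livers (0.60, SE 0.11, adjusted p = 0.00147). For both, DKO replicate 4 was the lowest of the group and still above WT. Lamb1 and Lamc1 were not called, so 4 of the 7 basement membrane genes rose.

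Fibrillar collagens divided the DKO libraries. Col1a1 had 9.10, 8.57, 7.83 and 6.74 in fasted DKO livers, against 6.88, 6.90, 7.22 and 6.92 in fasted WT livers. Replicates 1 to 3 lay above all WT libraries and replicate 4 below all of them, and the difference of 1.08 (SE 0.40) missed the threshold (adjusted p = 0.053), and without replicate 4 it was 1.52 (adjusted p = 0.000889). Col3a1 had the same order, with 9.72, 9.23, 8.53 and 7.67 in fasted DKO livers, against 8.09, 8.37, 8.33 and 8.13 in fasted WT livers, a difference of 0.56 (SE 0.35, adjusted p = 0.224), and 0.93 (adjusted p = 0.00887) without replicate 4. Col1a2 was at 9.20, 8.90, 8.61 and 7.96 in fasted DKO livers, against 7.93, 7.82, 8.06 and 7.78 in fasted WT livers, where replicate 4 fell in the WT range (0.77, SE 0.21, adjusted p = 0.0155). Col5a1 (0.44, SE 0.15, adjusted p = 0.0428) and Col5a2 (0.54, SE 0.17, adjusted p = 0.0246) were called, Col5a1 with overlap. Col5a1 was lost in the 7 fits other than that without DKO replicate 4 (adjusted p = 0.0594 to 0.113), and Col5a2 without DKO replicate 2 or WT replicate 2 or 4 (adjusted p = 0.0513 to 0.0708). The mean log2 level of the 5 fibrillar collagens stood 1.33, 0.96, 0.53 and -0.11 above the fasted WT mean in DKO replicates 1 to 4, while the fasted WT libraries lay between -0.10 and 0.14. The mean of the 7 basement membrane genes stood 0.80, 0.75, 0.59 and 0.50 above it in DKO replicates 1 to 4 and between -0.07 and 0.08 in fasted WT libraries, where replicate 4 stayed above every WT library.

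**Figure D3:**
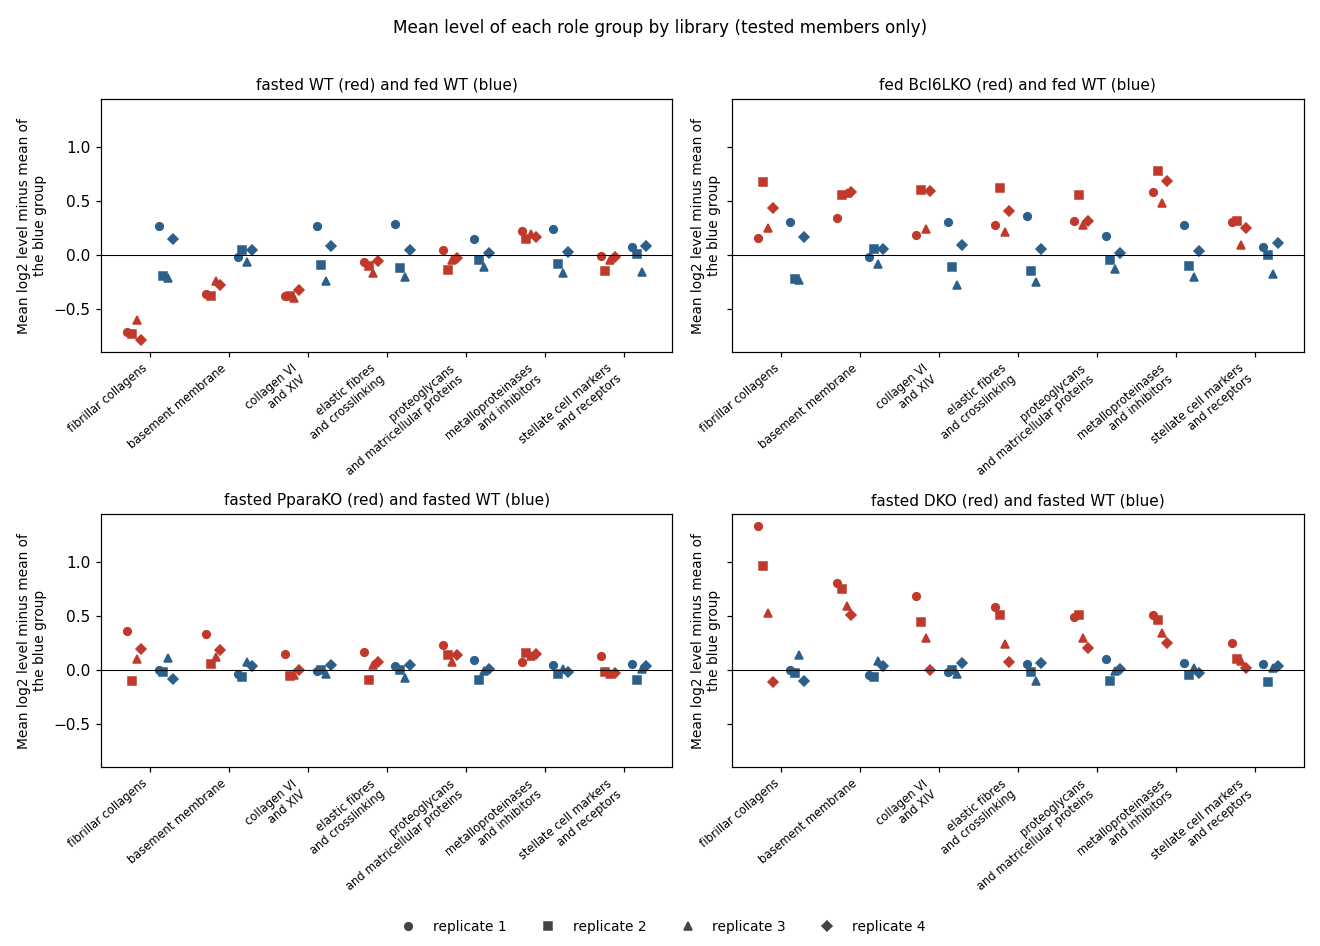
Mean log2 level of the tested genes of each role group in every library, relative to the mean of the WT livers (blue) of that comparison, which are the fed WT livers in the fasting panel. Replicates are shown by symbol. In fasted DKO livers (red) the fibrillar collagens run between 1.33 in replicate 1 and -0.11 in replicate 4, while the basement membrane group stays at 0.50 or above in all 4 libraries.

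Further genes called higher in fasted DKO livers were Pdgfrb (0.58, SE 0.14, adjusted p = 0.00754), Pdgfra (0.45, SE 0.09, adjusted p = 0.00207), Bgn (0.46, SE 0.09, adjusted p = 0.00279), Fbn1 (0.42, SE 0.13, adjusted p = 0.0214) and Fbln5, a fibulin needed for elastic fibre assembly (0.30, SE 0.09, adjusted p = 0.0255), all without overlap. Fbn1 was lost without DKO replicate 2 or WT replicate 1 or 3 (adjusted p = 0.0516 to 0.0556), and Fbln5 without DKO replicate 1 or 2 or WT replicate 3 (adjusted p = 0.0614 to 0.069). Eln, Col6a1, Col6a2 and Dcn were called with overlapping groups and differences of 0.26 to 0.43. Eln, Col6a1 and Col6a2 were each lost in 6 of the 8 fits without 1 library, those without DKO replicate 1, 2 or 3 included (adjusted p = 0.053 to 0.122). Dcn was lost without DKO replicate 3 or WT replicate 2 or 3 (adjusted p = 0.0571 to 0.0721).

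The stellate cell markers Lrat, Des and Acta2 were not called in fasted DKO livers. Lrat was at 8.17, 8.02, 7.98 and 7.95 in fasted DKO livers, against 8.22, 8.11, 8.01 and 8.01 in fasted WT livers (-0.06, SE 0.08, adjusted p = 0.602, interval -0.23 to 0.12), Des at 6.28, 6.26, 6.08 and 6.08 in fasted DKO livers, against 5.94, 5.90, 6.03 and 6.16 in fasted WT livers (0.17, SE 0.09, adjusted p = 0.163, interval -0.03 to 0.37) and Acta2 at 5.06, 4.68, 4.81 and 4.47 in fasted DKO livers, against 4.65, 4.62, 4.98 and 4.54 in fasted WT livers (0.06, SE 0.14, adjusted p = 0.77, interval -0.25 to 0.37). All 3 overlapped, and Acta2 took the opposite sign (-0.03) with equal library totals. Tgfb1 had 7.65, 7.72, 7.53 and 7.39 in fasted DKO livers, against 7.53, 7.31, 7.33 and 7.05 in fasted WT livers, and its difference of 0.27 (SE 0.11, adjusted p = 0.0809) passed with the replicate block (adjusted p = 0.0455) and without DKO replicate 4 or WT replicate 1 (adjusted p = 0.0439 and 0.0352). Timp1, at 0.62 to 0.82 in fasted DKO livers and 0.61 to 0.66 in fasted WT livers, was too low to test.

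Markers of other cell types were counted in this comparison too, where 19.3% of all genes were higher and 20.8% lower. Of 14 sinusoidal endothelial markers 5 were higher, with sums of 10983 to 12292 in fasted DKO livers and 9781 to 11201 in fasted WT livers and none at 0, and 7 of 8 erythroid markers were lower, with sums of 6415 to 8991 in fasted DKO livers and 11839 to 15264 in fasted WT livers. Of 4 vascular smooth muscle markers tested 1 was higher and 1 lower (sums 1492 to 2002 in fasted DKO livers and 2148 to 2662 in fasted WT livers, none of 7 at 0). Of 13 Kupffer cell markers 2 were higher and 0 lower by limma. Of 3 portal fibroblast and mesothelial markers tested 1 was lower and 0 higher, and of 2 cholangiocyte markers 1 was lower. Their part in the matrix differences was not tested.

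The Bcl6LKO and DKO comparisons have no library in common. Of the 25 genes higher in fed Bcl6LKO livers 16 (64%) were also higher in fasted DKO livers, and these made up 84.2% of the 19 genes higher there, and Col1a2, Col6a1 and Fbln5 were the other 3. For all genes tested in both tables these shares were 51.1% and 48.5%. The fasting comparison shares WT libraries with each of the others, and PparaKO with DKO, so calls across the 4 comparisons are only set side by side. Over the 4 comparisons Sparc, Mmp14 and Pdgfra were called in every one, and 8 of the 40 genes (Col18a1, Lox, Loxl1, Ecm1, Mmp2, Timp1, Des and Acta2) in none, with Lox and Timp1 not tested. Mmp14 and Pdgfra were higher each time, while Sparc was lower in fasted WT livers and higher in the 3 knockout groups. DKO and PparaKO livers were not compared in 1 table, so no difference between them was tested.

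Libraries of a group tended to be high or low for many of these genes at once. Fed WT replicate 1 was the highest of its group for 27 of the 38 genes and replicate 3 the lowest for 29. In fed Bcl6LKO livers replicate 2 was the highest for 24 and in fasted PparaKO livers replicate 1 for 26. Values of different genes within a library were thus not independent. Counts of this kind were not made over all genes, and whether the pattern is particular to these genes was not tested. When single libraries were left out, the genes called numbered 19 to 32 higher in fed Bcl6LKO livers, 13 to 25 higher in fasted DKO livers and 11 to 15 lower in fasted WT livers. Over all genes these ranges were 1869 to 2107, 1877 to 2295 and 948 to 1135.

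**Figure D4:**
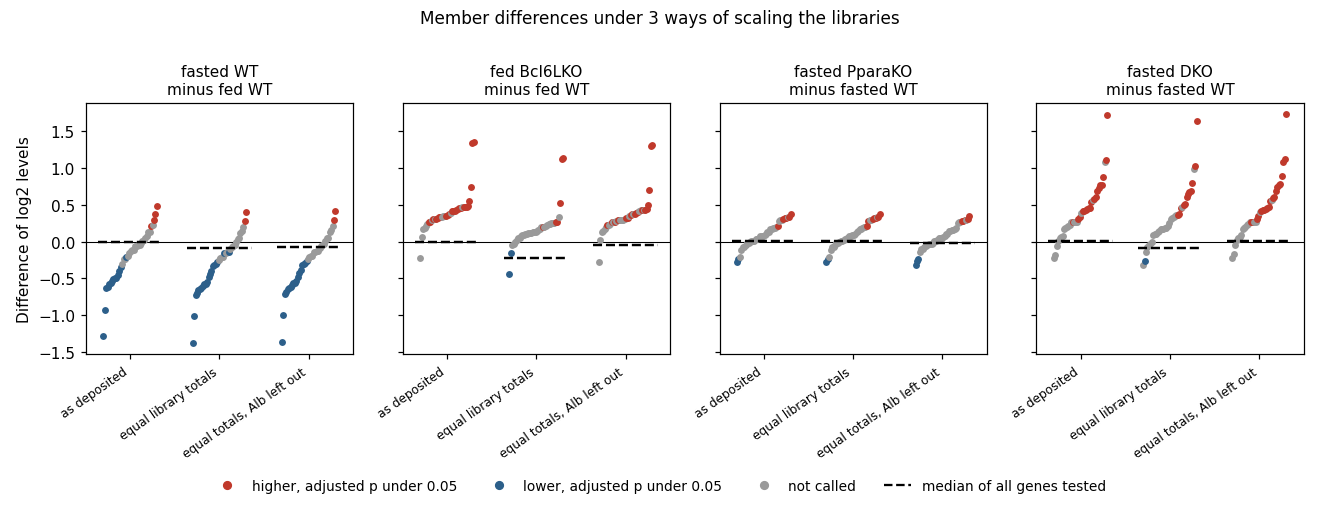
Differences of the 38 genes, sorted, under 3 scales in the 4 comparisons (log2), with calls in colour and the median of all genes tested as a dashed line. With equal library totals the fed Bcl6LKO points move down with the median of all genes (-0.22), and Nid1 and Mmp14 stay above 1.1. With Alb left out of the totals 19 genes are called higher.

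Genes around these members were taken from 5 lists of 132 related genes, of which 126 were in the tables. The lists hold enzymes that modify and process collagen, other matrix proteins, TGF-beta and PDGF signalling, other matrix proteases and inhibitors, and other stellate cell markers. In fasting 20 of the 106 tested were lower and 8 higher, against 11% and 11.9% of all genes. Of 16 collagen processing genes 3 were lower and 4 higher. Serpinh1, the collagen chaperone HSP47, differed by -0.71 (SE 0.07, adjusted p = 0.000156), and Ppib, a prolyl isomerase of collagen folding, by -0.59 (SE 0.06, adjusted p = 0.000116). Both fell. In the list of other matrix proteins 11 of 33 were lower and 3 higher, with Col27a1, a fibrillar collagen of cartilage, at -0.71 (SE 0.10, adjusted p = 0.000891) and the laminin chain Lamb3 at 0.90 (SE 0.17, adjusted p = 0.00371).

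Among the other stellate cell markers, Ngfr, a neurotrophin receptor, fell in fasted WT livers (-0.60, SE 0.07, adjusted p = 0.000261), and Cxcl12, a chemokine, rose (0.46, SE 0.06, adjusted p = 0.000801). Of the list 1 of 21 was higher and 2 lower, against 11.9% and 11% of all genes. Of 27 TGF-beta and PDGF genes 2 were lower, Smad3 (-0.24, SE 0.05, adjusted p = 0.00641) and the co-receptor Eng (-0.15, SE 0.05, adjusted p = 0.0473). Of 9 other proteases and inhibitors 2 were lower, Mmp15 (-0.41, SE 0.08, adjusted p = 0.00351) and Adamts9 (-0.37, SE 0.05, adjusted p = 0.000628).

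In fed Bcl6LKO livers 37 of 113 related genes were higher and 7 lower, against 18.3% and 19.8% of all genes. With equal library totals 12 were higher and 25 lower, against 976 and 6892 of all 12118 genes then tested. In the list of other matrix proteins 14 of 37 were higher and 3 lower. Loxl4, a collagen crosslinking enzyme, was higher by 2.43 (SE 0.11, adjusted p = 6.6e-08), while Col27a1 was lower, with a difference of -2.31 (SE 0.11, adjusted p = 8.08e-08). In the signalling list 9 of 28 were higher and 1 lower, led by Pdgfa, a ligand of the PDGF receptors (1.48, SE 0.09, adjusted p = 3.55e-07), and Ski, a corepressor of SMAD proteins (1.29, SE 0.08, adjusted p = 4.05e-07). In the collagen processing list 2 of 17 were higher and 2 lower, with the prolyl hydroxylase subunit P4ha2 at -0.61 (SE 0.13, adjusted p = 0.00338) and the procollagen protease Adamts2 at 0.32 (SE 0.09, adjusted p = 0.0209). Mmp15 was lower (-0.63, SE 0.09, adjusted p = 0.000249) and Adamts9 higher (0.50, SE 0.08, adjusted p = 0.000453) in a list where 4 of 10 were higher and 1 lower. Of 21 further stellate cell markers 8 were higher by limma and 0 lower, among them the collectin Colec11 (0.45, SE 0.07, adjusted p = 0.000391) and Rgs5 (0.45, SE 0.09, adjusted p = 0.00268).

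In fasted PparaKO livers 15 of 108 related genes were higher and 6 lower, against 11.7% and 13.3% of all genes. Of 27 signalling genes 5 were higher and, by limma, 0 lower. The TGF-beta receptor Tgfbr2 was higher by 0.69 (SE 0.11, adjusted p = 0.000883) and Ctgf, a matricellular target of TGF-beta, by 0.43 (SE 0.10, adjusted p = 0.00885). The protease Adamts1 was higher (0.73, SE 0.12, adjusted p = 0.00103), and Cxcl12 was lower (-0.58, SE 0.09, adjusted p = 0.0012). Cxcl12 was the 1 of 21 further stellate cell markers called lower, and 2 were called higher. The largest difference on the high side of that list was 0.68. Loxl4 (0.52, SE 0.15, adjusted p = 0.0286) and Emilin1, an elastic fibre glycoprotein (0.50, SE 0.10, adjusted p = 0.00533), led the other matrix proteins, where 4 of 34 were higher and 3 lower. P3h1, a prolyl hydroxylase, and Ppib were the 2 of 16 collagen processing genes that were higher (0.42, SE 0.06, adjusted p = 0.000373 for P3h1 and 0.32, SE 0.09, adjusted p = 0.0188 for Ppib). Mmp15 was lower (-0.49, SE 0.13, adjusted p = 0.0175) with overlapping groups, in a list with 2 of 10 higher and 2 lower.

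In fasted DKO livers 33 of 108 related genes were higher and 11 lower, against 19.3% and 20.8% of all genes. With equal library totals 24 were higher and 13 lower, against 1590 and 3416 of all 12005 genes then tested. Among other matrix proteins 8 of 35 were higher and 4 lower, and in the signalling list 8 of 27 and 2. Col8a1, a short-chain collagen, was higher by 2.81 (SE 0.20, adjusted p = 2.34e-06), Loxl4 by 2.07 (SE 0.18, adjusted p = 1.06e-05) and Pdgfa by 2.08 (SE 0.17, adjusted p = 7.02e-06). Tgfbr2 was higher too (1.10, SE 0.10, adjusted p = 1.5e-05). In the collagen processing list 7 of 16 were higher and 2 lower, with Ppib at 0.75 (SE 0.09, adjusted p = 0.000107) and the procollagen protease Bmp1 at -0.65 (SE 0.11, adjusted p = 0.00129). Of 21 further stellate cell markers 8 were higher and 1 lower, and of 9 other proteases and inhibitors 2 and 2. Among them were Adamts1 (0.52, SE 0.15, adjusted p = 0.0175), Cxcl12 (-0.88, SE 0.15, adjusted p = 0.00116) and Mmp15 (-1.05, SE 0.16, adjusted p = 0.000443), and the groups of Adamts1 overlapped. Cxcl12 was the 1 further stellate cell marker called lower, and the largest difference on the high side of that list was 0.90.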

How the data were processed

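Livers were measured by stranded, ribosome-depleted RNA-seq in 24 samples, of which 20, in 5 groups, had columns in the 4 tables. Another 4, from fasted Bcl6LKO livers, were left out because no column was matched to them. The authors mapped reads with STAR to mm10, counted exon reads with HOMER and normalized with DESeq2, and the deposited values are log2 levels made separately per table. These levels carry no read counts, so depth and its precision are unknown. The deposited tables also hold 12 columns of the authors' fold changes and p-values, which were not used.

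Each comparison was fitted within its table with limma 3.58.1 (R 4.3.3; empirical Bayes with trend) on genes with a mean log2 level of at least 4. P-values are two-sided and were adjusted by Benjamini-Hochberg over all genes tested. The procedure was tested on simulated data. Alternatives were no filter on low values, equal library totals, the same without Alb (added after seeing the data), median centring, quantile normalization, a constant prior spread, a replicate block, and leaving out each library. Same-numbered libraries deviated from their group means together in the fasting table (correlations over genes 0.26, 0.13, 0.21 and 0.15) but not in the Bcl6LKO (-0.13 to 0.08), PparaKO (-0.05 to 0.10) or DKO (-0.09 to -0.04) tables. Since the labels give no shared source, the pairing in the fasting table comes from these correlations.

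The 40 genes and all lists were chosen with earlier results of these data known. Values per sample are given for up to 8 called members per comparison with the largest differences and for Col1a1, Col1a2, Col3a1, Lrat, Des, Acta2, Timp1 and Tgfb1 in every comparison. Other called members may be named, as may the 2 called genes with the largest differences in each related list. Members named without a call outside these 8, and the promoters shown, were chosen after their values were seen. Gene positions and exon overlaps are from GENCODE vM21, and promoter windows from RefSeq.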

Additional observations from a re-analysis of the deposited data

Results flagged for a closer look

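In groups of 4 the highest or lowest library was compared with the others by Dixon's ratio of gap to range. Of 198 groups tested, over the members given per library, the targeted genes and the means of the role groups, 8 exceeded the 95% critical value, and chance gives about 1 in 20. The Col1a1 level of fasted WT replicate 3 was 7.36 in the fasting table, where the other fasted WT libraries lay between 7.09 and 7.12. The same library was at 7.16 in the PparaKO table (others 6.88 to 6.91) and at 7.22 in the DKO table (others 6.88 to 6.92), which are not independent, since these tables share the fasted WT libraries. Fed WT replicate 1 had a Lum level of 7.01 in the Bcl6LKO table, against 6.41 to 6.50 in the other fed WT libraries. Fasted DKO replicate 4 had a Col4a2 level of 9.89, against 10.24 to 10.30 in the other DKO libraries.

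The remaining values are means over a role group, relative to the mean of the WT livers of the table. The basement membrane mean was 0.34 in fed Bcl6LKO replicate 1 and 0.56 to 0.58 in the other fed Bcl6LKO libraries. The mean of proteoglycans and matricellular proteins was 0.56 in fed Bcl6LKO replicate 2, against 0.27 to 0.32 in the others of its group. The mean of the stellate cell markers and receptors was 0.13 in fasted PparaKO replicate 1, with the other PparaKO libraries between -0.04 and -0.02.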

How the results depend on the processing

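Read counts were not used here, so a difference near the threshold could not be weighed by depth, and the cause of the moves below was not tested. Equal library totals moved most counts. With them the genes called higher in fasting were 2, as they also were when Alb was left out of the totals. In fed Bcl6LKO livers 6 were then higher and 2 lower, and in fasted DKO livers 12 higher and 1 lower. In fasted PparaKO livers 1 gene was lower without the filter on low values and 1 after quantile normalization. Over all genes, equal library totals gave 810 higher and 3293 lower in fasting (862 and 2835 without Alb in the totals) and 976 higher and 6892 lower in fed Bcl6LKO livers, where the values as deposited gave 1416 higher and 1309 lower in fasting and 2212 and 2394 in fed Bcl6LKO livers.

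Among members without a call, some signs turned. With equal library totals Des was -0.0448 in fasting (-0.0324 with Alb left out) and -0.0458 in fed Bcl6LKO livers. Acta2 was then -0.00302 in fed Bcl6LKO livers and -0.0279 in fasted DKO livers, where quantile normalization gave -0.0299. The replicate block changed the counts to 17 lower and 3 higher in fasting, 24 higher in fed Bcl6LKO, 7 higher and 2 lower in PparaKO and 21 higher in DKO livers. Over all genes the block gave 1366 lower and 1479 higher in fasting, and 2195 and 2088 in fed Bcl6LKO livers. It gave 1469 lower and 1277 higher in PparaKO livers, and 2209 and 2093 in DKO livers.

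Leaving out each library in turn gave 2 to 5 higher and 11 to 15 lower in fasting, 19 to 32 higher and 0 to 1 lower in fed Bcl6LKO, 4 to 9 higher and 0 to 2 lower in PparaKO, and 13 to 25 higher and 0 to 1 lower in DKO livers. The 2 higher in fasting came without fasted or fed replicate 3 or 4, and the lower call in fed Bcl6LKO livers, Lrat, without fed WT replicate 3. In PparaKO livers 0 were lower without knockout replicate 3 or 4 or WT replicate 1 or 4. Members over 2-fold numbered 1 to 2 lower in fasting and 2 to 4 higher in DKO livers. These fits turned signs for Tgfb1 in fasting (-0.122 to 0.0108), Acta2 (-0.0327 to 0.10) and Lrat (-0.109 to 0.121) in PparaKO livers, and Acta2 in DKO livers (-0.0425 to 0.154). Over all genes they gave 1035 to 1288 higher and 948 to 1135 lower in fasting. In fed Bcl6LKO livers the ranges were 1869 to 2107 higher and 1993 to 2221 lower. PparaKO livers had 989 to 1425 higher and 1208 to 1698 lower, and DKO livers 1877 to 2295 and 2086 to 2483.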
